A study of Caenorhabditis elegans with 2 samples.

Results

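The members described here are the regions of the X chromosome recovered by chromatin immunoprecipitation and sequencing (ChIP-seq) of DAF-12 in fourth-stage (L4) larvae of Caenorhabditis elegans. They are the rows of the region list called on both replicates together (the pooled list) that lie on X, 5853 of 30000. The other rows are 24119 regions on the 5 autosomes, used here for comparison, and 28 on the mitochondrial genome, which were left out of every share and rank given for nuclear regions. The study has 1 group, L4 larvae of mixed sex carrying an eGFP-tagged daf-12 transgene, with 2 replicates, and no other condition, stage or genotype. The strain is OP222, with the unc-119(ed3) mutation on chromosome III and the transgene insertion wgIs222, and whole animals were used. Regions called on each replicate alone number 5769 on X in replicate 1 and 4828 in replicate 2. Each region carries the authors' signal, an enrichment value whose scale is not stated, so signals are compared only within 1 list. Reads from the transgene and from the endogenous daf-12 locus cannot be told apart in these lists. Read depth is unknown. Control libraries were not used here. With 2 replicates an exact sign-flip test cannot give a two-sided p below 0.5, so no test is given, and the value in each replicate list stands beside the pooled value. Intervals given for shares cover counting error only.

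DAF-12 is a nuclear hormone receptor that binds dafachronic acids, bile-acid-like steroids, and couples the choice between reproductive growth and the dauer larva to developmental timing. Its own gene lies on X, as do several genes of the heterochronic pathway, which orders stage-specific cell fates. The X chromosome is also the target of the dosage compensation complex, a condensin-containing complex that in XX animals assembles at recruitment sites on X and lowers the expression of both X chromosomes. Those recruitment sites are known to hold a sequence motif that includes the 9-mer TCGCGCAGG and occurs more densely on X than on autosomes.

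The 5 X regions of largest pooled signal all held this 9-mer within 100 bp of the summit, the base at which the signal peaks. Their summit windows are shown because they carry a word found in 7 of the 40 X regions, and in none of the 60 autosomal ones, among the first 100 nuclear regions by pooled signal. All windows run 100 bp to each side of the summit on the plus strand of WBcel235, the assembly with ce11 coordinates, and come from its RefSeq copy. Capitals mark the 9-mer, the overlapping 8-mer GCGCAGGG and the 8-mer TTATCCAC, on either strand.
Y41G9A.17 intron, chrX:2996956-2997156: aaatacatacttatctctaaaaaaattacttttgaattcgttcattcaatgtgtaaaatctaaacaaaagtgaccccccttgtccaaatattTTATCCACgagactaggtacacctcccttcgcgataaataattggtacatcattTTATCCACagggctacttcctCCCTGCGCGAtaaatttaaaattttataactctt
mom-1 intron, chrX:6296562-6296762: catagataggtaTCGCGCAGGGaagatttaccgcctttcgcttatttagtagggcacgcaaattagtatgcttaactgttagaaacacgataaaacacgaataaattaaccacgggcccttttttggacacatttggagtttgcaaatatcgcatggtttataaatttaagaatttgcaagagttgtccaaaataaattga
Intergenic, chrX:11094117-11094317: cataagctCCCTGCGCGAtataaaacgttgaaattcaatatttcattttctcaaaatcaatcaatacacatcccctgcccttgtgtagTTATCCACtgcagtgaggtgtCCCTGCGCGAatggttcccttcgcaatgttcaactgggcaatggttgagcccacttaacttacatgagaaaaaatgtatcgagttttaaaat
Upstream of xol-1, chrX:8036300-8036500: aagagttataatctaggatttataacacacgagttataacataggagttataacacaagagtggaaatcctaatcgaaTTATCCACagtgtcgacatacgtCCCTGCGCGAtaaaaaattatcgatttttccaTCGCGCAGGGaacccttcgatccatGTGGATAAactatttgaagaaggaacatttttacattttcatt
Intergenic near F22H10.2, chrX:16682030-16682230: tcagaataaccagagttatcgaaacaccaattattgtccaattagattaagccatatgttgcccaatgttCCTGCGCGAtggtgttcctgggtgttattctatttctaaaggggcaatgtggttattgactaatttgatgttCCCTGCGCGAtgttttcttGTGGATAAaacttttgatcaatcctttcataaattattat
The windows at 11094117, 8036300 and 16682030 each held the 9-mer at 2 places, and the other windows held it once. The 9-mer was followed by a further G at every site but one, the left site of the window near F22H10.2. TTATCCAC stood in 4 of the 5 windows, and the mom-1 window lacked it. Of all X windows of that length 0.458% hold it. Both 8-mers were chosen after these sequences were seen, so their counts here are a description only.

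Among the X regions next in signal, the window in the coding exon of pks-1, a polyketide synthase gene, held GCGCAGGG without the rest of the 9-mer, and the window upstream of nspc-17 held the 9-mer at its left edge. The strongest window inside daf-12 is shown beside them because it held none of these words.
pks-1 coding exon, chrX:5429428-5429628: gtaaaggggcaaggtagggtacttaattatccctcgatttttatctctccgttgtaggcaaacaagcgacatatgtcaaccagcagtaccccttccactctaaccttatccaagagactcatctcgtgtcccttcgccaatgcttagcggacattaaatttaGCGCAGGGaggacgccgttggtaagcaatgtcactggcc
Upstream of nspc-17, chrX:14525900-14526100: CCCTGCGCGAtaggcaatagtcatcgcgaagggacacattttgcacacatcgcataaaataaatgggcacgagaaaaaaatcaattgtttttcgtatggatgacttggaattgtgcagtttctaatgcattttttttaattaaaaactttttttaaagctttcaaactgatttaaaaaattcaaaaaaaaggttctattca
daf-12 intron, chrX:10642693-10642893: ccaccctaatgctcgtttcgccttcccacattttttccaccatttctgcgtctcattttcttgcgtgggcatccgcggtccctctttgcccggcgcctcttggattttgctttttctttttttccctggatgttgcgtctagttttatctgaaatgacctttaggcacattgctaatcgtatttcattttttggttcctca

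Each of these regions had a signal far above the X median of 5.83, and its rank in the replicate lists varied. Replicate ranks are the best rank by signal of any region of that list that overlaps it by at least 1 bp, counted over the whole list. The Y41G9A.17 region (chrX:2996904-2997207) had a pooled signal of 27.4, the largest on X, with a signal of 14.2 and rank 52 in replicate 1 and a signal of 16.2 and rank 27 in replicate 2. The region in an intron of mom-1 (chrX:6296510-6296813), which encodes a Porcupine-family protein needed for Wnt signalling, had a pooled signal of 25.2, rank 111 in replicate 1 and rank 90 in replicate 2. Both regions were therefore near the top of each list. The 9-mer copy in the mom-1 region, however, was contained in no replicate 2 region. The intergenic region at chrX:11094065-11094368, whose summit lay 3969 bp downstream of the start of W02H3.3, had a pooled signal of 24.1, rank 30 in replicate 1 and rank 155 in replicate 2. The region at chrX:8036248-8036551 lay 4913 bp upstream of xol-1, the switch gene of sex determination that is repressed in XX animals, and its nearest start of any kind was that of C18A11.13, 274 bp away. Its pooled signal was 21.6, and its ranks were 613 in replicate 1 and 26 in replicate 2. No replicate 2 region contained either copy of the 9-mer there, nor the copy at chrX:11094227-11094235 in the intergenic region. The region near F22H10.2 (chrX:16681978-16682281) also had a pooled signal of 21.6, but ranked 7727 in replicate 1 and 52 in replicate 2. It thus rested mainly on replicate 2, and its copy at chrX:16682100-16682108 was contained in no replicate 1 region.

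The list that the authors thresholded for reproducibility held 9 X regions among its 21 nuclear ones on ce11, and 7 among 20 on ce10. The 9 were the 9 X regions of largest pooled signal, and the values of signal at the edge were close, with 19.80 for the last member and 19.79 for the pks-1 region just outside. The remaining 4 thresholded X regions held no 9-mer within 100 bp of the summit. They lay 1689 bp downstream of the start of F19H6.5 (pooled signal 20.3, ranks 154 and 56 in replicates 1 and 2), 869 bp upstream of the small nucleolar RNA gene T27A8.8 (20.2, ranks 701 and 30), 90 bp upstream of the metabotropic glutamate receptor gene mgl-1 (20.1, ranks 224 and 1778) and 42 bp inside the noncoding RNA gene C30E1.9 (19.80, ranks 63 and 48). The mgl-1 region was the 1 of these 4 outside the first 1000 of replicate 2, and the T27A8.8 window held TTATCCAC. A 9-mer copy at chrX:16056651-16056659 crosses the right end of the T27A8.8 region (chrX:16056353-16056656). That copy lay in another pooled region, of rank 4030, and in a replicate 2 region of rank 284. Of the other X regions among the 15 of largest signal, the one near sma-9, a zinc finger gene of the body-size pathway, ranked 59 and 3624, and the one 24 bp upstream of H01A20.4, with the nuclear receptor gene nhr-3 at 3210 bp, ranked 137 and 38. The F28C10.3 promoter region had a pooled signal of 18.5 and ranks 85 and 3439. Its window holds AGGACA on the minus strand, and the H01A20.4 window holds AGTGCA, both core sequences of DAF-12 response elements. The nspc-17 region, near a gene of a nematode-specific peptide family, had a signal of 18.5 and ranks 70 and 519.

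**Figure D1:**
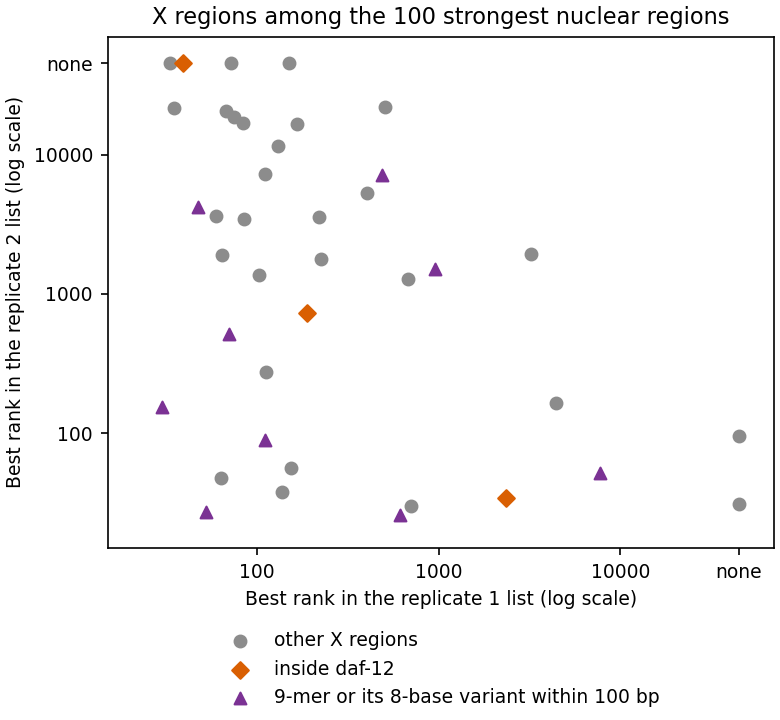
Best rank in the replicate 1 list (horizontal, log scale) against that in the replicate 2 list (vertical, log scale) for the 40 X regions among the 100 nuclear regions of largest pooled signal; points at "none" have no overlapping region in that list. Triangles mark the 9 regions with GCGCAGGG or the 9-mer within 100 bp of the summit, diamonds the 3 inside daf-12, and 11 regions lie within the first 1000 of both lists.

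The X chromosome held more regions per base than any autosome in each of the 3 lists. In the pooled list X had 330.3 regions per Mb, against 292.2 on the autosomes together and 280.8 to 309.3 on single autosomes. Replicate 1 had 325.6 per Mb on X and 283.8 to 306.7 on the autosomes, and replicate 2 had 272.5 on X and 218.5 to 243.3 on the autosomes. The ratio of X to autosomes was 1.13 in the pooled list, 1.11 in replicate 1 and 1.18 in replicate 2. X held 19.5% of the pooled nuclear regions, 19.2% of those of replicate 1 and 20.2% of those of replicate 2, and 17.7% of nuclear bases. The animals were of mixed sex, and males carry 1 X where hermaphrodites carry a pair. How the copy number of X in the ChIP and control material moves these densities was not tested.

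Regions with a deposited q-value below 0.05 were also densest on X. They made up 5.61% of all pooled nuclear regions, with 371 of 5853 on X (6.34%) and 1310 of 24119 on the autosomes (5.43%). In replicate 1 they were 16.6% of nuclear regions, with 17.8% on X and 16.4% on autosomes, and in replicate 2 they were 59.6%, with 61.3% on X and 59.1% on autosomes. Per Mb, X exceeded the autosomes by a factor of 1.32 in the pooled list, 1.21 in replicate 1 and 1.22 in replicate 2. The median signal differed little. It was 5.83 on X and 5.65 to 5.75 on single autosomes in the pooled list, 4.22 against 4.15 to 4.21 in replicate 1, and 3.00 against 2.93 to 2.97 in replicate 2.

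**Figure D2:**
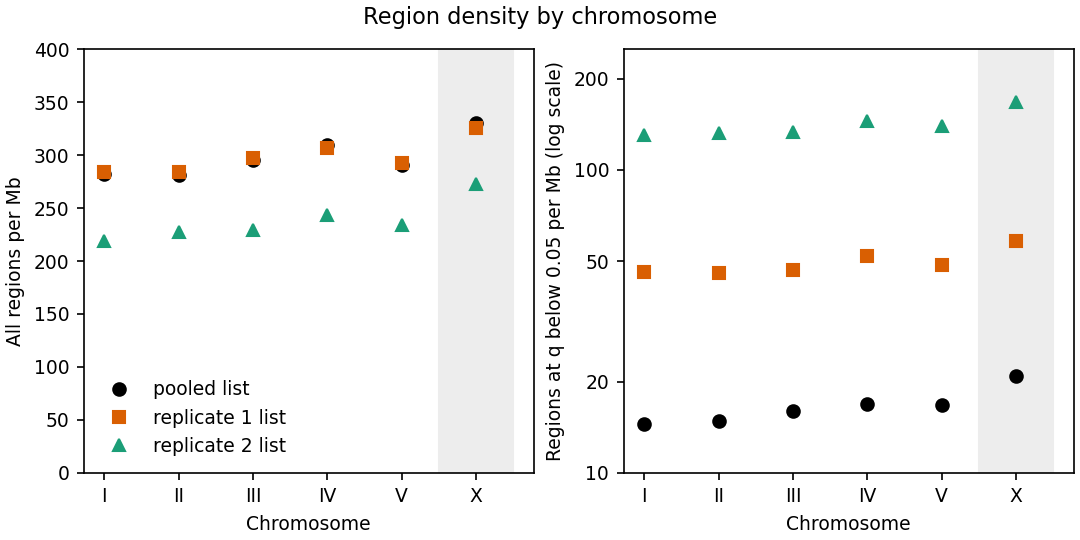
Regions per Mb of each chromosome (left) and regions at q below 0.05 per Mb (right, log scale) in the pooled list and the 2 replicate lists, with 1 point per chromosome and list and X shaded. X has the highest point of the 6 chromosomes in each list and panel, 330.3 regions per Mb in the pooled list.

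The excess on X was largest among the strongest regions. X held 40 of the first 100 nuclear regions of the pooled list by signal (40.0%), called leading regions from here on, 33 of the first 100 of replicate 1 and 28 of the first 100 of replicate 2. Per base this was 3.11 times the autosomal density in the pooled list, 2.29 times in replicate 1 and 1.81 times in replicate 2. These ratios include regions inside daf-12, which are 3 of the 40 in the pooled list. Among the first 1000 the X share was 23.5%, 23.8% and 23.7% in the pooled, replicate 1 and replicate 2 lists, a density ratio of 1.43, 1.46 and 1.45. The 3 lists thus gave like values at 1000 regions and spread more at 100.

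**Figure D3:**
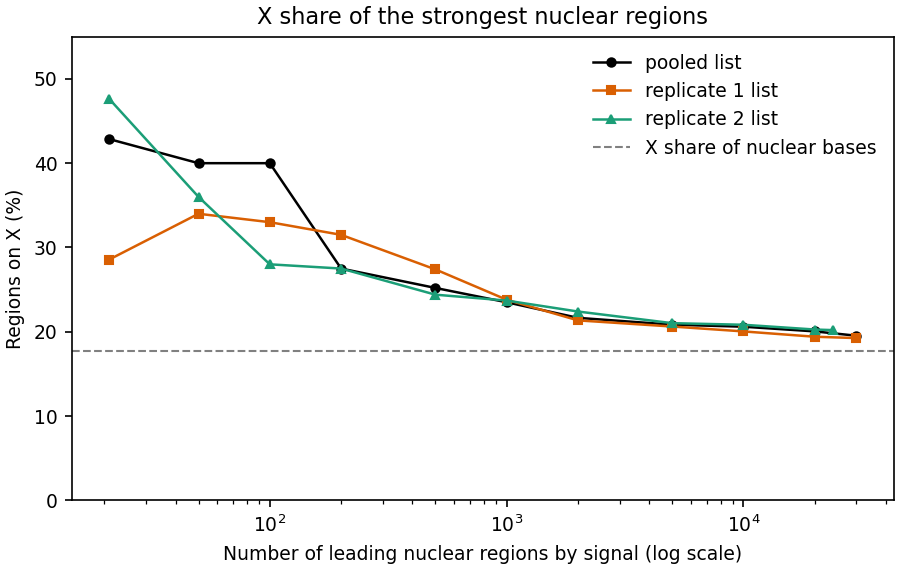
Share of X among the leading nuclear regions by signal (vertical, %) against how many leading regions are counted (horizontal, log scale), for the pooled and replicate lists, with the X share of nuclear bases (17.7%) as a dashed line. From 100 regions on, all 3 curves fall and stay above the dashed line, and at 100 regions they stand at 40%, 33% and 28%.

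Along X the regions were spread more evenly than along the autosomes. With each chromosome cut into 3 equal parts, the middle part of X held 361.3 pooled regions per Mb, the left part 310.2 and the right part 319.5. The density of the middle part over that of the outer parts was 1.15 on X in the pooled list, the lowest of the 6 chromosomes, with 1.16 to 1.44 on the autosomes. It was also lowest on X in replicate 1, at 1.10 against 1.12 to 1.39, and in replicate 2, at 1.19 against 1.21 to 1.52. The autosomal value nearest to that of X differed from it by less than the spread of X across lists. In steps of 1 Mb, X held 257 regions in the first Mb and 402 between 10 and 11 Mb, the densest step. That step had 41 regions at q below 0.05 and 29 of the first 1000 nuclear regions, and it was also the densest step of replicate 1, with 391 regions. In replicate 2 the densest step was 6 to 7 Mb, with 334 regions, against 319 at 10 to 11 Mb.

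**Figure D4:**
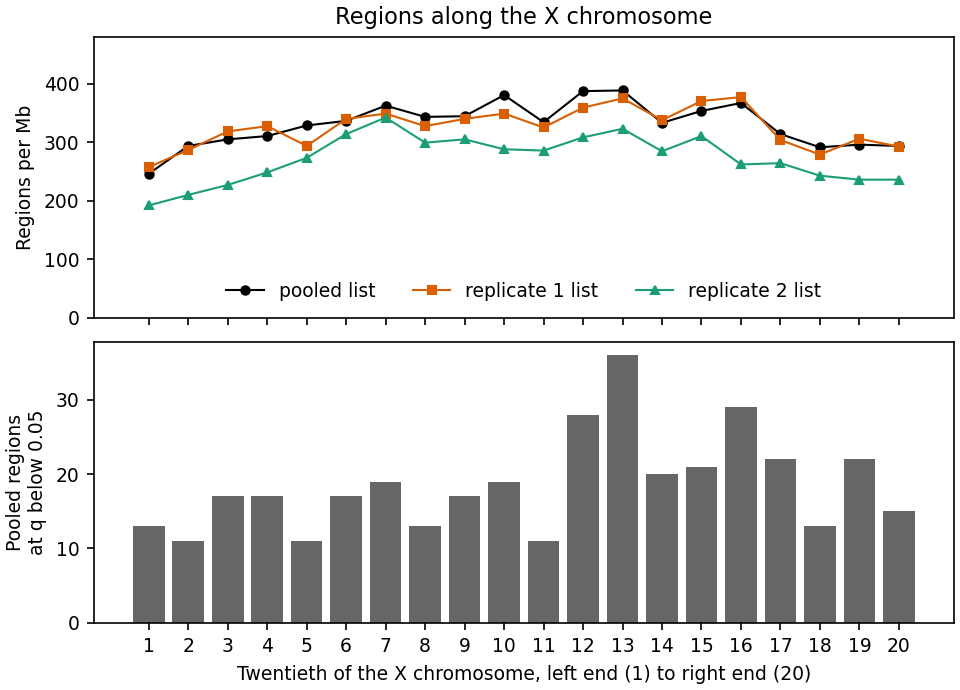
Regions per Mb in 20 equal parts of X for the 3 lists (top), and the number of pooled regions at q below 0.05 in each part (bottom), from the left end to the right end. Part 13 holds the most regions at q below 0.05 (36), and the replicate 2 list is lowest at the left end.

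The step from 10 to 11 Mb contains daf-12 itself (chrX:10635908-10666875). Within 2 kb of the gene there were 34 pooled regions, where the mean density of X would give 11.6. Of these, 15 were at q below 0.05, 11 were among the first 1000 nuclear regions and 3 among the first 100. The strongest, in an intron at chrX:10642641-10642944, had a pooled signal of 19.4, rank 39 and signal 15.9 in replicate 1, and no overlapping region in replicate 2. The next, at chrX:10651426-10651729, had a pooled signal of 17.2 and ranks 2356 and 34 in replicates 1 and 2, and the third, at chrX:10652936-10653239, a signal of 16.2 and ranks 187 and 725. The 3 regions were thus supported unequally by the replicates. The transgene carries daf-12 sequence, and the part of its copies in these counts was not tested. Without the regions within 2 kb of daf-12, X held 22.6% of the first 1000 nuclear regions.

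X regions lay less often in promoters than autosomal ones. A summit was called promoter when it lay from 1 kb upstream to 200 bp downstream of an annotated transcript start of any gene. This held for 2252 X regions (38.5%) and 44.4% of autosomal regions, where 35.5% of X bases and 39.3% of autosomal bases are promoter by this rule. The gap widened with signal. In the first 1000 nuclear regions, 87 X regions (37.0%) and 379 autosomal regions (49.5%) were promoter, and in the first 100, 14 of 40 and 37 of 60 (61.7%). In the first 1000 of each replicate the shares were 33.6% on X against 49.5% in replicate 1, and 39.2% against 49.9% in replicate 2. Among the leading 100 of replicate 1, 9 of 33 X regions (27.3%) and 31 of 67 autosomal ones (46.3%) were promoter, and in replicate 2, 12 of 28 (42.9%) and 46 of 72 (63.9%). In each list the autosomal share exceeded the X share, and the leading X regions lay below, at or above the base share of X depending on the list.

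The other leading X regions lay mostly between genes or in introns. Of the 40 X regions in the first 100, 14 were intergenic (35%) and 10 intronic (25%), and 1 each lay in a coding exon, that of pks-1, and in another exon, that of dyf-6. The 60 autosomal ones had 16 intergenic (26.7%) and 5 intronic (8.33%). Intergenic bases make up 22.8% of X and 14.9% of the autosomes. The leading intergenic share of the pooled list was thus 1.53 times its base share on X and 1.79 times on the autosomes. Among the first 100 of replicate 1 these ratios were 1.99 and 1.91. In replicate 2 they were 0.939 and 1.03, so its leading regions showed no such excess on X. Over all X regions 22.9% were intergenic, close to their share of X bases, 24.0% intronic and 9.77% in coding exons, which make up 15.2% of X bases. The start nearest to an X summit was that of a protein-coding gene for 65.0% of regions, against 71.6% on autosomes. It was a noncoding RNA start for 25.8% against 12.6%, a tRNA start for 2.49% against 0.518%, and a piRNA start for 2.51% against 9.0%. The annotation itself has 276 of the listed tRNA genes on X and 336 on all autosomes together. Annotated noncoding RNA and piRNA starts were not counted by chromosome. How far those shares follow the annotation was therefore not tested. The median distance to the nearest start was 926 bp on X and 733 bp on autosomes.

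Of all pooled nuclear regions, 17.7% overlapped a region in both replicate lists by at least 1 bp. On X the count was 1136 of 5853 (19.4%), and on the autosomes 17.3%. This difference of 2.14 percentage points turned to -3.19 among regions at q below 0.05. A further 43.4% of X regions overlapped a region of replicate 1 only, 22.6% of replicate 2 only, and 14.6% of neither. Of the 40 leading X regions 34 were overlapped in both lists (85.0%), 4 in replicate 1 only and 2 in replicate 2 only, against 53 of 60 leading autosomal ones (88.3%). Of the same 40, 34 met a region in the first 1000 of replicate 1 (85.0%), against 38 of the 60 autosomal ones (63.3%). For the first 1000 of replicate 2 the counts were 16 of 40 (40.0%) and 25 of 60 (41.7%).

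The replicate lists agreed little in their leading regions. Of the X regions among the first 1000 of replicate 1, 13 of 238 (5.46%) overlapped an X region among the first 1000 of replicate 2, and 12 of 237 (5.06%) the other way. The autosomal values were 20 of 762 (2.62%) and 19 of 763 (2.49%). Over the whole lists, 20.2% of X regions of replicate 1 and 23.5% of those of replicate 2 were shared, against 17.7% and 22.1% on autosomes. X regions covered 9.80% of X in replicate 1 and 7.07% in replicate 2, and autosomal regions 8.83% and 6.0% of the autosomes. The part of this wider coverage in the shared counts was not tested.

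The 9-mer TCGCGCAGG was concentrated at the top of the X list. It lay within 100 bp of the summit in 7 of the 40 leading X regions (17.5%, 95% Wilson interval 8.75% to 32%) and in 0 of the 60 leading autosomal ones (up to 6.02%). It was in 1 of the 195 other X regions of the first 1000, and in 11 of all 5853 X regions against 3 of 24119 autosomal ones. For scale, 0.0476% of all windows of that length on X and 0.0163% of those on the autosomes hold it. In replicate 1 it was in 4 of the 33 leading X regions and 0 of 67 autosomal ones, and in a further 2 of the 205 other X regions of its first 1000. In replicate 2 it was in 1 of 28 and 0 of 72, and in a further 5 of the 209 other X regions of its first 1000. The value for the leading regions of replicate 2 thus rests on 1 window, and its interval (0.633% to 17.7%) overlaps that of replicate 1 (4.82% to 27.3%).

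**Figure D5:**
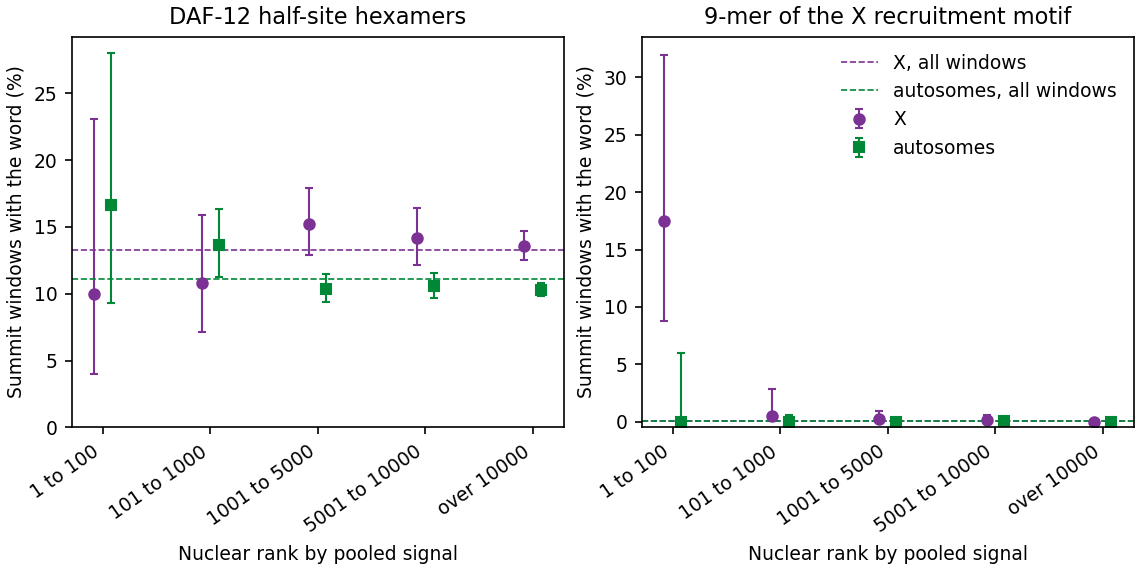
Share of summit windows (vertical, %) with a DAF-12 hexamer (left) and with the 9-mer (right) by nuclear rank in the pooled list, for X and autosomes, with 95% Wilson intervals; dashed lines give the share among all windows of that length. The 9-mer stands at 17.5% in the 40 leading X regions and at or under 0.513% in every other class, whereas the hexamers show no such step.

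Seen from the genome, X carries 48 copies of the 9-mer (2.71 per Mb) and the autosomes 68 (0.824 per Mb). Of the X copies, 15 lay in a pooled region (31.2%, exact 95% interval 18.7% to 46.3%), where pooled regions cover 9.95% of X. Of the autosomal copies 4 did (5.88%, 1.63% to 14.4%), with 8.81% covered. In replicate 1 the counts were 13 of 48 and 4 of 68, and in replicate 2 they were 11 and 3. Only 6 of the X copies lay in a region of both replicate lists. Copies in one of the first 1000 regions numbered 11, 8 and 8 on X in the pooled, replicate 1 and replicate 2 lists, and 0 on the autosomes in each.

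The flanks of the X copies were compared by whether a region held them. The 11 copies in the first 1000 pooled regions lay in 8 regions, 3 of which held 2 copies each. Of these 11, 10 were followed by G, 9 by GA, and 10 were preceded by A. Of the 4 X copies in pooled regions of lower rank, 2 were followed by G, 1 by GA, and 1 was preceded by A. Of the 33 X copies in no pooled region, 7 were followed by G, 3 by GA, and 9 were preceded by A. Some of these 33 have the same flanks, such as those starting at 278145 and 282869, and those starting at 15046816 and 15049918. The 33 are therefore not all separate sequences. The first pair shown lies in regions of pooled signal 15.4 and 12.7, and the second pair is the first by position on X of those in no region. Capitals mark the 9-mer, and the strand is that on which it reads.
chrX:13514556-13514564, plus strand: gatacctttaTCGCGCAGGgatattgaaa
chrX:806672-806680, plus strand: tgtgcgattaTCGCGCAGGggtgtttgtt
chrX:38054-38062, minus strand: gaagaattcaTCGCGCAGGaaactacaaa
chrX:278145-278153, minus strand: gaagaattctTCGCGCAGGaaactacaaa
A copy at chrX:2997299-2997307, beside the strongest X region, reads agagatcgtaTCGCGCAGGgaggaagtat and lay in no region of any of the 3 lists.

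The hexamers AGTGCA and AGGACA, core sequences known from DAF-12 response elements, were not more frequent in the strongest X regions than in weaker ones. One or both, on either strand, lay within 100 bp of the summit in 808 X regions (13.8%) and in 10.5% of autosomal ones, while 13.3% of all X windows and 11.1% of autosomal windows of that length hold one. In the 40 leading X regions 4 did (10%, 3.96% to 23.1%), and in the 60 leading autosomal ones 10 did (16.7%, 9.31% to 28%). Over the rest of the first 1000 the shares were 10.8% on X and 13.6% on autosomes. In the leading 100 of replicate 1 the shares were 6.06% on X and 16.4% on autosomes, and in replicate 2 they were 7.14% and 16.7%. The intervals of X and autosomes overlapped in the leading 100 of each list. Over all regions of the pooled list they were 12.9% to 14.7% on X and 10.1% to 10.9% on autosomes. The shares over all regions were 13.4% and 10.6% in replicate 1, and 13.9% and 11.1% in replicate 2. All windows of X and autosomes differ in the same direction, and how far the region shares follow them was not tested. GC content was 33.1% in the windows of both X and autosomal regions, under the 35.2% and 35.5% of all windows.

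Genes of X with a start near a region were counted next, with near meaning a pooled summit within 2 kb of an annotated start. Of the protein-coding genes of all nuclear chromosomes 74.4% were near a region by this rule, and 7.27% near one at q below 0.05. On X it was 2173 of 2731 (79.6%), and 251 (9.19%) at q below 0.05, against 73.6% and 6.97% on the autosomes. Most lists of X genes therefore held a region near most members, at a share close to this background. Values given are pooled ranks, over the whole list, and signals of the best region near each gene, and replicate ranks are those of the best summit of that list within 2 kb.

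Of the heterochronic genes on X, 5 of 5 were near a region and 3 near one at q below 0.05. These were daf-12 itself (pooled rank 52, signal 19.4, replicate ranks 39 and 72), lin-14, a nuclear regulator of early larval fates (rank 377, signal 12.7, replicate ranks 1292 and 1378), and the microRNA gene let-7 (rank 841, signal 11.3, rank 878 in replicate 1 and none in replicate 2). The replicate 2 rank of daf-12 is that of another summit, as no replicate 2 region overlapped the pooled region of rank 52. The zinc finger gene hbl-1 had rank 6654 and the let-7 family gene mir-84 rank 23525. The 5 genes thus ranged from the top to the lower end of the list. Among genes of dafachronic acid synthesis and dauer entry, 4 of 5 were near a region. The cytochrome P450 gene daf-9, whose product makes dafachronic acids, had rank 1855 and signal 9.81 (replicate ranks 2427 and 5600). The co-SMAD gene daf-3 had rank 2229 and signal 9.44 (2614 and 1818), and the sterol transport gene ncr-1 rank 6331.

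Of the X genes of sex determination and dosage compensation, 5 of 6 were near a region and 0 near one at q below 0.05. The highest was xol-1 (rank 2401, signal 9.30, replicate ranks 10820 and 5152), so the strong region 4913 bp upstream lay beyond the 2 kb limit. The X signal genes fox-1 and sex-1 had ranks 3615 and 13165, and sdc-2 and sdc-1, which encode proteins that bring the dosage compensation complex to X or act with it, had ranks 11033 and 25018. These ranks lie across the list.

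Nuclear hormone receptor genes had 21 of 26 near a region (80.8%) and 5 near one at q below 0.05 (19.2%). On the autosomes these shares were 74.5% and 8.91%. Besides daf-12, the X members at that q-value were nhr-40, nhr-91, nhr-3 and nhr-26. Their pooled ranks were 309 (signal 13.1), 1014, 1095 and 1314. Replicate ranks were 129 and 4759 for nhr-40, 1653 and 10007 for nhr-91, and 288 and 3554 for nhr-26. For nhr-3 the rank was 425 in replicate 1, with none in replicate 2. MicroRNA genes had 62 of 74 near a region and 16 near one at q below 0.05 (21.6%), against 14 of 187 (7.49%) on the autosomes. The leading ones were mir-1022 (rank 207, signal 13.9, replicate ranks 1064 and 10485), mir-2221 (rank 486, 88 in replicate 1 and none in replicate 2), mir-791 (rank 489, 2881 in replicate 1 and within the first 1000 of replicate 2), and mir-54 and mir-55, which share 1 region (rank 520, 232 and 9610). Neighbouring microRNA genes of a cluster can share regions, so these counts are not of separate regions.

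The tRNA genes had 225 of 276 near a region (81.5%) and 29 near one at q below 0.05 (10.5%). On the autosomes these shares were 78.0% and 7.14%. The small nucleolar RNA genes had 25 of 33 (75.8%) and 3 (9.09%), against 79.2% and 12.5% on the autosomes. The best of the X regions were ones already described, among them the region upstream of xol-1, near 2 tRNA genes, the C30E1.9 region and the T27A8.8 region. Of the small nuclear RNA genes 1 of 3 was near a region, M163.13 at rank 13266.

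Cuticle collagen genes had 21 of 30 near a region and 3 near one at q below 0.05, led by col-165 (rank 270, signal 13.3, rank 2116 in replicate 1 and none in replicate 2) and col-180 (rank 864). Homeobox genes had 16 of 22, with ceh-89 (rank 734, 828 in replicate 1 and none in replicate 2) the 1 at q below 0.05. Neuronal genes had 11 of 15. The Robo-family guidance receptor gene sax-3 was the 1 at that q-value (rank 1434, 1415 in replicate 1 and none in replicate 2). After it came lim-4 (rank 2591), unc-18 (rank 2883, replicate ranks 806 and 2616) and the calcium channel gene unc-2 (rank 3907). Muscle genes had 4 of 6, with the troponin T gene mup-2 (rank 1634, replicate ranks 714 and 20420) at that q-value. These counts stood near the protein-coding background.

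Besides the sex determination and small nuclear RNA lists, those with 0 members at q below 0.05 were the innexins, the gap junction subunits (6 of 6 near a region, led by inx-1 at rank 3239), the intestine and hypodermis regulators (4 of 5, led by the GATA factor gene elt-3 at rank 2612 and the nuclear receptor gene nhr-25 at rank 3626), the insulin-like peptides (2 of 2, ins-39 at rank 4526 and ins-9 at rank 11339) and the vitellogenins. Of the 5 vitellogenin genes on X, which encode yolk proteins made in the adult intestine, 3 were near a region, vit-4 at rank 10768, vit-1 at rank 13654 and vit-3 at rank 19494. No pooled summit lay within 2 kb of a start of vit-2, and replicate 2 had one at rank 19235.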

How the data were processed

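The authors deposited region lists in narrowPeak form for each of 2 replicates, for both together and thresholded for reproducibility (IDR), on ce10 and ce11. Per the labels, the replicate and pooled lists derive from ChIP alignments and a control file. Each deposited region has a signal whose scale is not stated and a −log10 q-value, which reaches 2.08 at most in the pooled list, where 15 X regions share it. Neither the aligner nor the peak caller, their versions or the reproducibility threshold is given in the sources used here. Depth is unknown, so the precision of single signals is too.

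X regions were taken from the pooled ce11 list, and ce10 lists served for counts and ranks only. Positions were annotated with Ensembl release 115 of WBcel235, and 0 regions ran past a chromosome end. Symbols of 3 microRNA genes, let-7 among them, came from the RefSeq table by position. Each word was looked for in both orientations, up to 100 bp from the summit. The functions were tested on simulated data. Python 3.11.15, numpy 2.4.6, pandas 2.3.3, scipy 1.17.1 and statsmodels 0.14.6 were used.

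The members, the gene lists and the words were chosen with earlier results of these data known. Named regions were the thresholded X peaks, the 15 X regions of largest signal and the 5 of best worst replicate rank, which all fell among the 15. Named genes were those nearest to or holding them, up to 5 per list, and 10 set genes (daf-12, daf-9, let-7, mir-84, lin-14, hbl-1, xol-1, sex-1, sdc-2 and vit-2). Leading regions named outside this rule, such as the other 2 inside daf-12, and dyf-6, were chosen after their values were seen. Alternatives changed the assembly, the merging of overlapping regions, the q limit, the replicate, the daf-12 locus, the promoter limits, the overlap and the window.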

Additional observations from a re-analysis of the deposited data

How the results depend on the processing

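With a single group there was nothing to pair. Differences are X minus autosomes. Restricting the lists to regions at q below 0.05 gave an X share of 22.1%, a density ratio of 1.32, and differences of -9.58 points in promoters, 0.958 points for the DAF-12 hexamers and 2.43 points for the 9-mer. That setting turned the difference in support by both replicate lists from 2.14 to -3.19 points and that in GC content from -0.0513 to 0.445 points; the cause was not tested. A window of 50 bp also turned the GC difference, to 0.153 points, and gave 1.60 points for the hexamers and 0.115 for the 9-mer. Merging overlapping regions gave 23.3% of the first 1000 on X, and differences of 0.127 in median signal, -5.83 points in promoters, 3.26 for the hexamers and 0.164 for the 9-mer. The ce10 list gave 24.1% of the first 1000 and a median signal difference of 0.0769. Without the regions within 2 kb of daf-12 these were 22.6% and 0.108. The first 100 regions gave 40.0% and the first 5000 gave 20.8%. Promoters from 500 bp upstream to 100 bp downstream gave -6.64 points, and protein-coding starts alone -6.44. Leaving out 1 replicate gave density ratios of 1.11 to 1.18, X shares of the first 1000 of 23.7% to 23.8%, median signal differences of 0.0376 to 0.0445 on those lists' own scales, q differences of 1.45 to 2.14 points, promoter differences of -5.52 to -5.41, hexamer differences of 2.78 to 2.80, 9-mer differences of 0.161 to 0.176 and GC differences of -0.161 to -0.0943. The other 23 values moved by less than 1 SD between the replicate lists, or, for the count of X regions, lay between 4828 and 5858. No read depth is known, so it cannot be said which X regions a deeper library would keep.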

Other observations

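A search of the 40 leading X windows for recurring 8-base words, made after the sequences were seen, found 28 words in at least 6 windows. Of these, 7 were over 10 times as frequent as in all X windows, and the other 21 were A- and T-rich words at up to 2.64 times. Among the 7, 6 overlap the 9-mer TCGCGCAGG, and some of these run up to 2 bases past its end. They were led by GCGCAGGG (printed as its complement CCCTGCGC in one orientation). GCGCAGGG was in 9 of 40 leading X windows (22.5%), 0 of 60 autosomal ones and 0.0851% of all X windows. In the leading 100 of replicate 1 it was in 5 of 33 X windows, and in those of replicate 2 in 1 of 28. The remaining word, TTATCCAC, is a different sequence. It was in 6 of 40 leading X windows (15%), 3 of the 195 other X windows of the first 1000 and 0 of 60 leading autosomal ones, against 0.458% of all X windows and 0.446% of all autosomal windows. Over all windows it is thus about as frequent on X as on the autosomes, unlike the 9-mer. In the leading 100 of replicate 1 it was in 2 of 33 X windows and 0 of 67 autosomal ones, and in replicate 2 in 4 of 28 and 0 of 72. Of the 6 X windows with it, 4 also held the 9-mer or GCGCAGGG, and 2 did not, those near T27A8.8 and ZK899.10. In all, 29 of the 40 leading X windows held none of these words.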
